A study of Mus musculus with 19 samples.

Results

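The 9 genes described here encode the plasminogen activators *Plat* (tissue type, tPA) and *Plau* (urokinase, uPA), the urokinase receptor *Plaur*, the matrix metalloproteinases *Mmp2*, *Mmp9* and *Mmp14*, and the tissue inhibitors of metalloproteinases *Timp1*, *Timp2* and *Timp3*. They are 9 of the 24547 genes in each deposited table. The set was chosen by function, but with the diet changes in view, because *Plat* moved in opposite directions in the cornea and the conjunctiva. Its diet changes are therefore given as a description, and none of them is read as a test result.

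The mice were female C57BL/6 animals by the labels (C57BL/6 J in the study's methods), with food ad libitum (AL) or under calorie restriction (CR). The labels carry the mark 6M, but the methods describe a diet that ran for months after about that age, so 6M is not the age at collection. A second mark in every label ends in W and is the same for all libraries. The methods do not explain this second mark, and no age was taken from it here. The cornea samples were epithelium scraped from the eye, and the conjunctiva was excised. The cornea gave 5 libraries of each diet, and the conjunctiva 4 of AL and 5 of CR, named here by diet and by the number in their label. No genetic alteration was given for any group. In 1 of the 2 cohorts of the study the CR chow was enriched in vitamins and micronutrients, and the labels do not say to which cohort a library belongs, so this enrichment and the restriction cannot be told apart here. By the methods, CR mice also received their food at a set time each day, before the night began. The timing of meals and the restriction can thus not be told apart either. The clock hour of collection was not given in the sources used here.

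Plasminogen activators cut the zymogen plasminogen into plasmin, a serine protease that dissolves fibrin and can activate several matrix metalloproteinases. uPA works at the cell surface when bound to its receptor. MMP-14 is a membrane-anchored protease that, together with TIMP-2, activates pro-MMP-2. MMP-2 and MMP-9 are the gelatinases, which cleave denatured collagen and basement membrane type IV collagen. TIMPs block the active site of metalloproteinases, and TIMP-3 is the member of that family that stays bound to the extracellular matrix. At the ocular surface, MMP-9 is best known as a protease raised in dry eye that disrupts the corneal epithelial barrier.

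In the GRCm38.p6 annotation of RefSeq, *Plat* lies at chr8:22757722-22782848, *Plau* at chr14:20836662-20843388 and *Plaur* at chr7:24460937-24475970. *Mmp2* lies at chr8:92827290-92853421, *Mmp9* at chr2:164940326-164955850 and *Mmp14* at chr14:54431598-54442456. *Timp1* lies at chrX:20870166-20874737, inside *Syn1* on the opposite strand, with 0 exonic bases shared. *Timp2* lies at chr11:118301061-118355411 on the minus strand. *Timp3* lies at chr10:86300412-86349505, inside *Syn3* on the opposite strand, and the annotated exons of the pair share 1733 bases. Reads from those bases could have been given to either gene if counting ignored strand, so the values of *Timp3* carry that uncertainty.

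Promoter windows from RefSeq (250 bases before to 50 bases after the annotated start) matched 5 of the 9 genes, namely *Plaur*, *Mmp14*, *Timp1*, *Timp2* and *Timp3*. The 250 bases before the start are shown for the 3 inhibitors, since they form 1 gene family and include *Timp3*, whose diet groups separated in the cornea. They cover chrX:20869916-20870165 for *Timp1* (plus strand), chr11:118355412-118355661 for *Timp2* (minus strand) and chr10:86300162-86300411 for *Timp3* (plus strand), each written 5′ to 3′ on the strand of its gene. Capitals mark the GC box, GGGCGG or its reverse complement CCGCCC.
Timp1: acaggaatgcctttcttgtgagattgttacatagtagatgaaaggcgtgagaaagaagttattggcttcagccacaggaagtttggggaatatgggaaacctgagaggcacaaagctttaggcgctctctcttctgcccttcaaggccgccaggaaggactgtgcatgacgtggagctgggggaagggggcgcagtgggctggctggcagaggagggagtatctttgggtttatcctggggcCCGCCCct
Timp2: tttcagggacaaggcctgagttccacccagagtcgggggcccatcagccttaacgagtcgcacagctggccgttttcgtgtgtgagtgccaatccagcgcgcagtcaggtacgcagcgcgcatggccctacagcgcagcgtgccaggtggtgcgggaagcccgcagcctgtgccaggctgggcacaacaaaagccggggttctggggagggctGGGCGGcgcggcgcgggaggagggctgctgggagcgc
Timp3: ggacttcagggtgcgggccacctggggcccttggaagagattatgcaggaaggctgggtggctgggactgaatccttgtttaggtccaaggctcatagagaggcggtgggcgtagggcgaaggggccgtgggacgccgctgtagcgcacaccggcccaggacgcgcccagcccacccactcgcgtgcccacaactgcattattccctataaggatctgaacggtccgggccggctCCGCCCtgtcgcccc
Each of the 3 stretches held 1 GC box, which began 8 bases before the start in *Timp1*, 37 before it in *Timp2* and 15 before it in *Timp3*. Of all 32851 promoter windows, 35.7% held this motif on either strand, so its presence is common. The other motifs searched on both strands were AP-1 (TGANTCA, in 7.81% of windows), CRE (TGACGTCA, in 1.79%) and the E-box CACGTG (in 7.15%). None of these occurred in the window of *Timp1*, *Timp2*, *Timp3* or *Mmp14*. *Plaur* held 1 AP-1 match, TGACTCA, 69 bases before the start used for its window, which lies downstream of the first base of the RefSeq gene span given above, so that the match falls inside that span. These are matches of letters and do not show binding.

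The cornea libraries held 10353873 to 14680980 counted reads and the conjunctiva libraries 10726357 to 14433080. Values below are normalized counts, the reads divided by the authors' size factor of the library, and the 2 tissues were scaled in separate tables. A log2 change is CR against AL on the log2(normalized count + 1) scale and is given with its standard error (SE) from limma. The added 1 shrinks differences between small counts, but libraries at or near 0 weigh heavily in a mean of logs. For genes with few reads the log2 change can thus lie closer to 0 or further from 0 than the ratio of the means. *Mmp2* in the cornea had −1.68, although its AL mean was only 1.73-fold its CR mean. A count of 0 allows up to 3 reads, or 2.27 to 3.37 normalized counts in these libraries, and such floors cover counting error only. The share of genes at 0 reads was 38.7% to 45.1% in AL and 39.9% to 47.6% in CR cornea libraries, and 33.6% to 37.9% and 33.9% to 40.1% in those of the conjunctiva. Calls required an adjusted p under 0.05 (limma, Benjamini-Hochberg over all genes tested) and a fold over 1.5. The labels do not say which libraries came from separate cages or days, so p-values measure the spread between these libraries only.

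All 7 corneal epithelial markers were detected in the cornea, at a summed 489915 to 714357 normalized counts. The same 7 were also detected in the conjunctiva, at a summed 97210.5 to 148867. The cornea in turn held all 5 conjunctival epithelial markers and 9 of the 10 fibroblast markers. All 5 goblet cell markers were detected in the conjunctiva. The conjunctiva also held all 10 fibroblast markers, 9 macrophage markers, 8 endothelial markers and 5 skeletal muscle markers. Of the 7 neutrophil markers none reached a mean of 10 in the cornea, where 4 were at 0 in every library, and 1 (*Cxcr2*) did in the conjunctiva, where 3 were at 0 in every library. Exocrine gland markers summed to a median of 178 in the AL cornea libraries but to 4185 in the highest of them. In bulk tissue, fewer cells of a type and less RNA per cell cannot be told apart.

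Most of the genes had lower mean levels under CR in the conjunctiva (8 of 9, with a median log2 change of −0.98), whereas 4 of the 6 fitted in the cornea had higher ones (median 0.25). The medians over all genes tested were −0.02 and −0.03. With single libraries left out, the median of the set ran from −1.14 to −0.74 in the conjunctiva and from 0.13 to 0.30 in the cornea. With the share of genes at 0 reads of each library in the fit, the medians of the set were −0.34 and 0.02. The clearest separations were *Plat* and *Mmp9* in the conjunctiva, both lower under CR, and *Timp3* in the cornea, higher under CR. *Plaur*, *Mmp9* and *Timp1* did not reach a mean of 10 normalized counts in the cornea and were not fitted there.

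*Plat* was the gene with opposite directions. In the conjunctiva it had 449, 474, 422 and 466 normalized counts in AL 1, 3, 4 and 5, and 247, 227, 303, 219 and 139 in CR 1 to 5. Every CR library lay below every AL library, and the AL libraries were tightly grouped (453 ± 23.0, SD, n = 4) compared with the CR libraries (227 ± 59.4, SD, n = 5). The mean in AL was 1.99-fold that in CR, and the log2 change was −1.04 (SE 0.20). CR 5 was the lowest of all, and the change stayed between −1.15 and −0.87 when any single library was left out.

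In the cornea *Plat* had 71.5, 87.4, 97.1, 105 and 62.8 normalized counts in AL 1 to 5, and 88.7, 102, 133, 188 and 121 in CR 1, 2, 3, 4 and 7. The groups overlapped, with CR 1 and CR 2 inside the range of the AL libraries and CR 4 highest. The means were 84.8 ± 17.6 (SD, n = 5) in AL and 127 ± 38.4 (SD, n = 5) in CR, and the log2 change was 0.55 (SE 0.24). The corneal side of the opposite movement was thus the weaker one, resting on 3 CR libraries above the AL range. The change in the conjunctiva minus that in the cornea was −1.58 (SE 0.32) on the log2 scale, the value for which the gene was chosen.

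*Plau* was low in both tissues. In the cornea it had 20.9, 74.3, 27.3, 53.9 and 46.3 normalized counts in AL 1 to 5, and 35.0, 33.0, 31.1, 33.7 and 19.5 in CR 1, 2, 3, 4 and 7. The conjunctiva libraries had 40.2, 132, 52.7 and 66.3 in AL 1, 3, 4 and 5, and 32.1, 16.2, 29.9, 69.7 and 19.9 in CR 1 to 5. The groups overlapped in both tissues. The log2 change was −0.42 (SE 0.40) in the cornea and −1.13 (SE 0.47) in the conjunctiva, so that urokinase, unlike *Plat*, had a negative estimate in both. AL 3 in the conjunctiva, the highest library, rested on 118 reads.

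*Plaur* was close to the floor in the cornea, with 0 reads in 3 of 10 libraries and 17 reads at most (CR 1). Conjunctival values were 20.1, 75.2, 34.4 and 12.7 normalized counts in AL 1, 3, 4 and 5, and 36.0, 49.5, 33.8, 0 and 11.1 in CR 1 to 5. The groups overlapped, with CR 4 at 0 reads and the highest value again in AL 3. The log2 change of −0.98 (SE 1.04) was smaller than its SE. It was 0.002 without CR 4 and ran from −1.41 to −0.52 without any other single library, so that the estimate and its sign rested on CR 4.

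**Figure D1:**
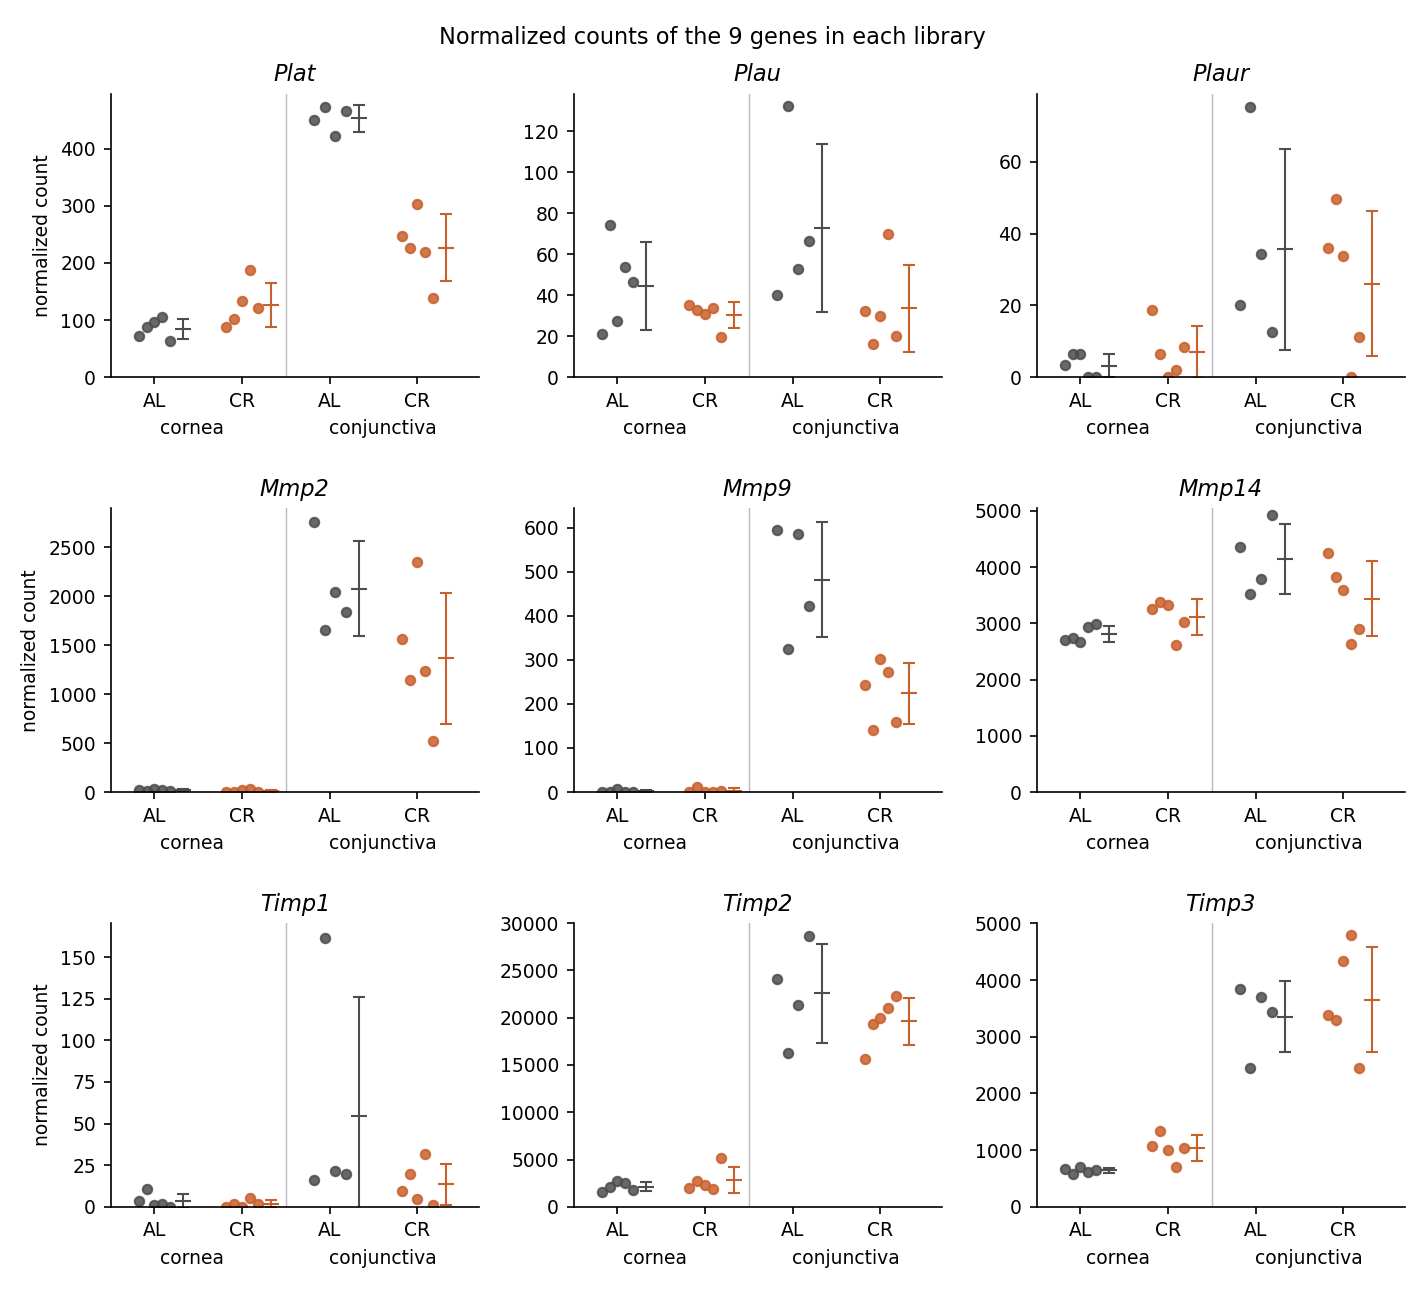
Normalized counts (vertical axes, linear, starting at 0, a separate scale for each gene) of the 9 genes in each cornea and conjunctiva library, grouped by diet; points are libraries, and the bar beside them is the mean with its SD, cut off at 0 where it would pass below. The tables of the tissues were scaled separately. *Plat* and *Mmp9* in the conjunctiva and *Timp3* in the cornea are the panels in which AL and CR points do not overlap, and the single high points of *Timp1* (AL 3, conjunctiva) and *Timp2* (CR 7, cornea) stand out.

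*Mmp9*, the gelatinase of dry eye, was nearly undetected in the corneal epithelium. It had 0 reads in 7 of 10 cornea libraries, and the others held 7 reads (AL 3), 13 reads (CR 2) and 2 reads (CR 7). In the conjunctiva every library held between 144 and 740 reads. There *Mmp9* had 595, 325, 585 and 422 normalized counts in AL 1, 3, 4 and 5, and 244, 142, 301, 273 and 160 in CR 1 to 5. The highest CR library lay below the lowest AL library. The means were 482 ± 131 (SD, n = 4) in AL and 224 ± 70.0 (SD, n = 5) in CR, and the log2 change was −1.12 (SE 0.25).

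*Mmp2* was also a conjunctival transcript in these libraries. In the cornea it had 0 to 34 reads, with 22.0, 14.2, 32.7, 18.6 and 10.3 normalized counts in AL 1 to 5 and 2.19, 0, 16.7, 34.7 and 2.79 in CR 1, 2, 3, 4 and 7. The groups overlapped and 3 of the CR libraries were at or under 3 reads, and the log2 change was −1.68 (SE 0.92). In the conjunctiva it had 2762, 1652, 2046 and 1843 normalized counts in AL 1, 3, 4 and 5, and 1566, 1145, 2354, 1236 and 526 in CR 1 to 5. All CR libraries but CR 3 lay below the AL range, and the log2 change was −0.73 (SE 0.38).

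*Mmp14*, the activator of pro-MMP-2, was well covered in both tissues, at 2444 to 5425 reads a library. In the cornea it had 2711, 2732, 2667, 2927 and 2987 normalized counts in AL 1 to 5, and 3251, 3382, 3319, 2609 and 3015 in CR 1, 2, 3, 4 and 7. CR 4 was the lowest library of either diet while the other CR libraries lay above the AL range. The log2 change was 0.15 (SE 0.10). In the conjunctiva it had 4351, 3525, 3794 and 4929 in AL 1, 3, 4 and 5, and 4253, 3821, 3589.6, 2634 and 2896 in CR 1 to 5. The groups overlapped, and the log2 change was −0.28 (SE 0.16).

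Among the inhibitors, *Timp3* stood apart from the other 2. In the cornea it had 673, 587, 707.3, 616 and 643 normalized counts in AL 1 to 5, and 1069, 1345, 1000.1, 708.1 and 1039 in CR 1, 2, 3, 4 and 7. All CR libraries lay above all AL libraries, but CR 4 did so by less than 1 normalized count. The means were 645 ± 47.2 (SD, n = 5) and 1032 ± 226 (SD, n = 5), a 1.60-fold ratio, and the log2 change was 0.65 (SE 0.14). *Syn3*, whose exons overlap those of *Timp3*, had mean normalized counts of 41.5 in AL and 58.4 in CR there.

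In the conjunctiva *Timp3* had 3847, 2449 (2448.5), 3695 and 3431 normalized counts in AL 1, 3, 4 and 5, and 3385, 3301, 4333, 4797 and 2449 (2449.1) in CR 1 to 5. The groups overlapped, and the log2 change was 0.11 (SE 0.19), the only positive estimate among the 9 genes in this tissue. It was −0.04 without AL 3 and −0.003 without CR 4, and reached 0.24 without CR 5.

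*Timp2* was covered by 1426 to 31533 reads a library. In the cornea it had 1569, 2045, 2688, 2564 and 1772 normalized counts in AL 1 to 5, and 2015, 2767, 2355, 1929 and 5158 in CR 1, 2, 3, 4 and 7. Only CR 2 and CR 7 exceeded the AL range, CR 7 by far, and the log2 change was 0.35 (SE 0.26), or 0.11 without CR 7. In the conjunctiva it had 24122, 16211, 21307 and 28648 in AL 1, 3, 4 and 5, and 15638, 19338, 19991, 20982 and 22241 in CR 1 to 5. The groups overlapped, with a log2 change of −0.18 (SE 0.17).

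*Timp1*, the inducible inhibitor, had 0 to 10 reads in the cornea and was at or under 3 reads in 8 of 10 libraries. In the conjunctiva it had 16.1, 162, 21.5 and 19.99 normalized counts in AL 1, 3, 4 and 5, and 9.74, 19.99, 4.83, 31.8 and 1.11 in CR 1 to 5. Most libraries were low and AL 3 alone was high, with 144 reads. The log2 change was −1.79 (SE 0.87), and it ranged from −2.22 to −1.03 when single libraries were left out.

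Of the 6 genes of the set fitted in the cornea, 1 (*Timp3*, higher) was called changed, where 1.22% of all 12277 genes tested were called. The diets were fully separated for 1 of the 6 (*Timp3*), against 3.97% of all genes tested. In the conjunctiva 1 of 9 (*Plat*, lower) was called, against 0.359% of 13928 genes, and 2 of 9 (*Plat* and *Mmp9*) were fully separated, against 3.86%. Because the set was selected on these same changes, nothing is read from these calls or shares, and they are not test results for its genes. The call of *Timp3* was lost without any one of AL 1, 2, 3, 5, CR 2 and CR 3, although its log2 change stayed between 0.55 and 0.78. The call of *Plat* was lost without any one of AL 1, 3, 4, 5, CR 1, 2 and 4, and *Mmp9* was called instead without AL 3 and beside *Plat* without CR 3.

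**Figure D2:**
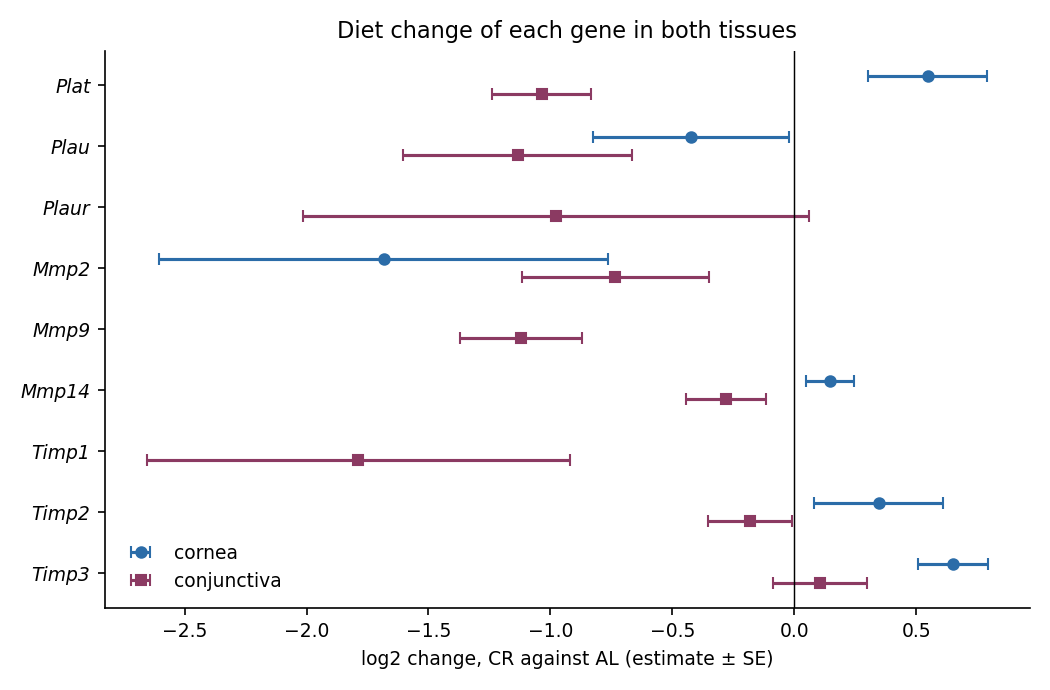
Log2 change of each gene under CR against AL (horizontal axis; estimate ± SE from limma on log2(normalized count + 1)) in the cornea (circles) and the conjunctiva (squares); genes with a mean under 10 normalized counts are left out of the cornea. *Plat*, *Mmp14* and *Timp2* have estimates on opposite sides of 0 in the tissues, from 0.55 to −1.04 for *Plat*, while *Plau* and *Mmp2* are negative and *Timp3* positive in both.

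For the other genes fitted in both tissues, the change in the conjunctiva minus that in the cornea was −0.43 (SE 0.19) for *Mmp14*, −0.53 (SE 0.31) for *Timp2* and −0.55 (SE 0.24) for *Timp3*. That difference was −0.71 (SE 0.62) for *Plau* and 0.95 (SE 0.997) for *Mmp2*, the former little more than 1 SE from 0 and the latter less. The estimates were thus lower in the conjunctiva for each of these genes except *Mmp2*.

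Markers of several cell types were also compared between the diets in the conjunctiva. There 9 of 10 fibroblast and 5 of 9 macrophage markers had an unadjusted p under 0.05 (limma), against 9.40% of all genes tested. Of the endothelial, skeletal muscle and neutrophil markers, 0 of 8, 0 of 5 and 0 of 1 did. All 10 fibroblast markers had lower estimates under CR there (median −0.70), and their summed level was 45383 to 65540 in the AL libraries and 28431 to 56974 in the CR libraries. All 9 macrophage markers were lower too (median −0.49), with sums of 3285 to 4329 in AL and 2278 to 3419 in CR. All 8 endothelial markers were lower (median −0.30), with sums of 1748 to 2407 in AL and 668 to 2660 in CR. Skeletal muscle markers had the opposite sign, with 5 of 5 higher under CR (median 0.55) and sums of 10518 to 46862 in AL and 12256 to 104562 in CR. The 1 neutrophil marker tested (*Cxcr2*) had a log2 change of 2.50, with overlapping log2 values of 0 to 5.94 in AL and 3.54 to 7.40 in CR. In the cornea the fibroblast sums overlapped (986 to 2192 in AL, 746 to 2500 in CR), and the 6 macrophage markers tested were lower under CR, with sums of 410 to 554 in AL and 299 to 357 in CR.

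Each gene was therefore also expressed relative to the fibroblast markers of its own library, as its log2 value minus the mean log2 value of the markers with a mean of at least 10 (10 in the conjunctiva, 9 in the cornea), a measure added after the data were seen. On this scale *Plat* in the conjunctiva ran from −2.93 to −2.33 in AL and from −3.38 to −2.71 in CR. The groups then overlapped and their means differed by −0.30, compared with the log2 change of −1.04. *Mmp9* likewise overlapped, at −3.01 to −2.43 in AL and −3.55 to −2.73 in CR, and *Mmp2* had the same mean in both diets to within 0.01. *Timp3*, with a log2 change of 0.11, ran from 0.01 to 0.23 in AL and from 0.80 to 1.07 in CR. Its groups thus separated on this scale, with a difference of 0.85. The mean marker level itself changed by −0.74 under CR, which raises every gene by that amount on this scale. The share of all genes that separate on it was not computed.

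Relative to the 9 macrophage markers, *Mmp9* in the conjunctiva kept apart (0.16 to 0.70 in AL, −0.59 to 0.07 in CR) and *Plat* overlapped (0.01 to 0.70 in AL, −0.60 to 0.09 in CR). *Timp3* was again higher in every CR library, at 3.07 to 3.39 in AL and 3.54 to 4.09 in CR. The mean level of these markers itself changed by −0.56 under CR, which raises every gene by that amount on this scale. How many of all genes separate on this scale was not computed, so nothing is read from the separations of *Mmp9* and *Timp3*. Relative to the 8 endothelial markers, AL and CR overlapped for all 9 genes in the conjunctiva. In the cornea, relative to fibroblast markers, *Plat* ran from −0.54 to 0.93 in AL and from −0.24 to 1.21 in CR, and *Timp3* from 2.50 to 3.56 and from 2.85 to 4.85, so that both overlapped. Relative to the 6 macrophage markers measured in the cornea, 4 genes separated with higher values in every CR library. The mean level of these markers itself changed by −0.67 under CR, which raises every gene by that amount on this scale. The share of all genes that separate on it was not computed, so nothing is read from this count. *Plat* ran from 0.34 to 0.92 in AL and from 1.29 to 2.35 in CR, a difference of 1.22, and the differences were 1.32 for *Timp3*, 1.02 for *Timp2* and 0.82 for *Mmp14*. The part of cell composition in these changes was not tested.

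**Figure D3:**
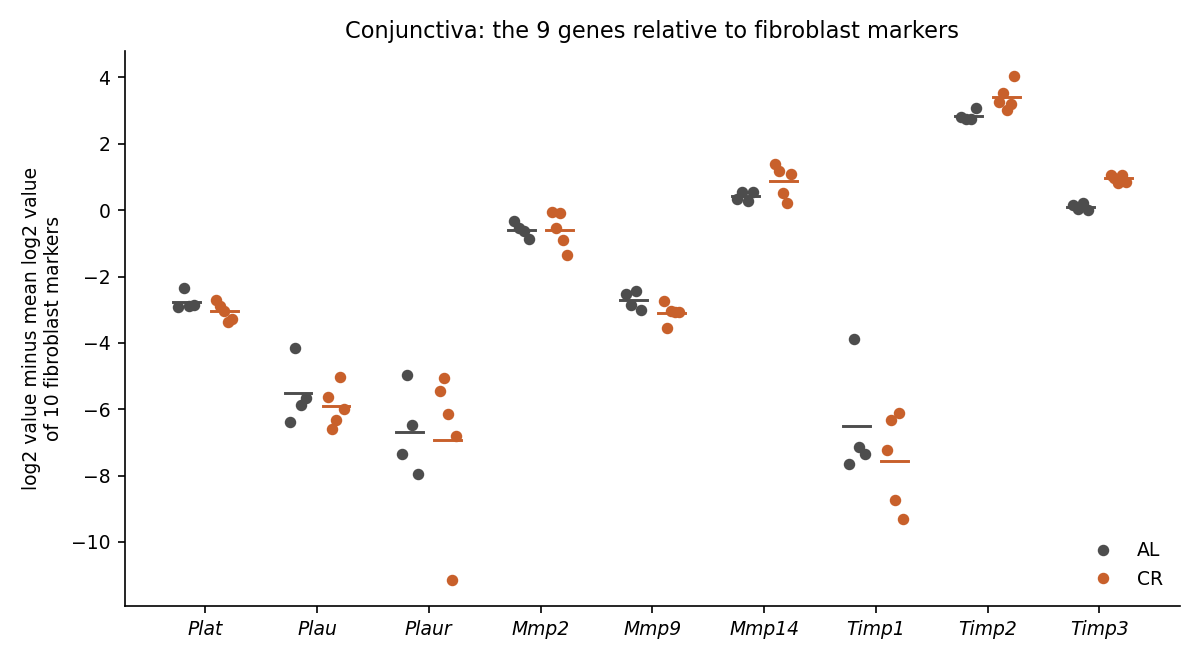
Conjunctiva libraries: log2(normalized count + 1) of each gene minus the mean of the same quantity over 10 fibroblast markers in that library (vertical axis, log2 units), with AL and CR libraries as points and the group means as lines. The AL and CR points of *Plat* and *Mmp9* overlap on this scale, and those of *Timp3* separate, at 0.01 to 0.23 in AL and 0.80 to 1.07 in CR. The mean marker level itself changed by −0.74 under CR, which raises every gene by that amount here.

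How the genes varied among mice of 1 diet was independent of the diet changes by which they were selected. After the mean of each diet was subtracted, 111 relations were computed among the genes and against marker levels and the share of genes at 0 reads, 39 in the cornea (n = 10) and 72 in the conjunctiva (n = 9). By exact two-sided permutation of libraries within diet, 0 passed an adjusted p of 0.05, and 13 had an unadjusted p under 0.05. The highest r was that of *Timp3* with the fibroblast markers in the conjunctiva, with Pearson's r = 0.95 (exact permutation p = 0.00625, adjusted 0.33) and Spearman's rho = 0.95 (exact permutation p = 0.00486, adjusted 0.34). Without the 2 libraries farthest from the median of the marker level, r was 0.88.

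*Timp3* followed the macrophage markers nearly as closely, with r = 0.90 (exact permutation p = 0.00590, adjusted 0.33) and rho = 0.87 (exact permutation p = 0.0125, adjusted 0.34), and r was 0.84 without 2 libraries. *Mmp9* followed the macrophage markers there with r = 0.88 (exact permutation p = 0.00903, adjusted 0.33) and rho = 0.80 (exact permutation p = 0.0285, adjusted 0.36), and r was 0.80 without 2 libraries. With the fibroblast markers *Mmp9* gave r = 0.78 (exact permutation p = 0.0434, adjusted 0.37) and rho = 0.80 (exact permutation p = 0.0333, adjusted 0.36), and r = 0.61 without 2 libraries. *Mmp9* and *Timp3* gave r = 0.83 (exact permutation p = 0.0128, adjusted 0.34) and rho = 0.87 (exact permutation p = 0.0132, adjusted 0.34), with r = 0.87 without 2 libraries. *Plat* and *Mmp2* gave r = 0.90 in the conjunctiva (exact permutation p = 0.0240, adjusted 0.34), but rho was 0.38 (exact permutation p = 0.350, adjusted 0.92) and r fell to 0.13 without 2 libraries, so that this relation rested on them. In the cornea the same pair gave r = 0.75 (exact permutation p = 0.0244, adjusted 0.34) and rho = 0.82 (exact permutation p = 0.00889, adjusted 0.34), with r = 0.58 without 2 libraries. All of these fail the correction and none is taken as established.

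The genes whose pattern among libraries was most like that of *Plat* after removal of the diet means were *Noc2l*, *Nfya* and *Cntrob* in the cornea (r = 0.92 for each, over 10 libraries and 12276 genes). In the conjunctiva they were *Apol9b* (r = 0.97), *Ccm2l* (r = 0.97) and *Arl4d* (r = 0.96), over 9 libraries and 13927 genes. With so many genes and so few libraries, values of this size are a description only. In the conjunctiva *Timp3* was closest to *Akap12* (r = 0.99) and *Abcc9* (r = 0.98), *Mmp9* to *Plekho2* (r = 0.97) and *Gm973* (r = 0.97), and *Mmp2* to *Vps25* (r = 0.98) and *Ccdc28b* (r = 0.97). *Mmp14* was closest to *Cic* and *Etfbkmt*, *Timp2* to *Zfp563* and *Mtus2*, *Timp1* to *Nes* and *Pdap1*, *Plau* to *Nudt5* and *Fscn1*, and *Plaur* to *Osgin2* and *Stoml1*, with r from 0.93 to 0.98.

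The wider pathway was read from 7 lists holding 164 genes. In the cornea 105 were tested, 1 was called higher and 0 lower, and 25 had an unadjusted p under 0.05. In the conjunctiva 135 were tested and 0 were called by limma, while 19 had an unadjusted p under 0.05. With voom on the recovered reads the called counts were 0 in both tissues. Estimates under CR were lower for 97 and higher for 38 of the 135 genes in the conjunctiva (median −0.20), and lower for 57 and higher for 48 of the 105 in the cornea (median −0.04). Over all genes tested, 18.1% in the cornea and 9.40% in the conjunctiva had an unadjusted p under 0.05, against 23.8% and 14.1% of the pathway genes. Lower estimates made up 53.1% of all genes tested in the cornea and 52.0% in the conjunctiva, against 54.3% and 71.9% of the pathway genes.

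The gene called in the cornea was *Adam9*, a membrane metalloproteinase and sheddase, which had means of 49.4 normalized counts in AL and 133 in CR (log2 change 1.36, SE 0.33, limma adjusted p = 0.0445). The call was lost without any one of AL 1, 2, 3, 5, CR 2, 3, 4 and 7, with log2 changes from 1.15 to 1.43. In the conjunctiva *Adam9* had a log2 change of −0.36 (SE 0.24, adjusted p = 0.686), and the difference between tissues of −1.72 (SE 0.41) did not pass (adjusted p = 0.154). *Adam17*, the TNF-alpha converting enzyme, fell by 0.50 on the log2 scale in the cornea (SE 0.12, limma adjusted p = 0.0409), less than the fold limit. The aggrecanase *Adamts4* had corneal means of 75.6 normalized counts in AL and 19.2 in CR (log2 change −3.69, SE 1.05, adjusted p = 0.0987). That log2 change ran from −4.41 to −1.60 under other processing. In the conjunctiva *Adamts4* had −1.82 (SE 0.47, adjusted p = 0.131) and *Adam19* −0.82 (SE 0.21, adjusted p = 0.131). In that tissue 21 of 25 ADAM proteases had lower estimates (median −0.43), against 7 of 14 in the cornea (median −0.04). An unadjusted p under 0.05 (limma) was reached by 7 of the 25 and 4 of the 14.

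Limma called 0 of the other matrix metalloproteinases (1 at an unadjusted p under 0.05 in each tissue), and all 7 tested in the cornea (median −0.71) and all 12 tested in the conjunctiva (median −0.51) had lower estimates under CR. With single libraries left out, 7 of 7 were lower in the cornea, and in the conjunctiva 9 to 12 of 12, or 9 of the 11 that could be tested without AL 4. The counts were 6 of 7 and 9 of 12 with the share of genes at 0 reads in the fit, and the median was then −0.23 in each tissue. With a pseudocount of 10 the medians were −0.37 in the cornea and −0.44 in the conjunctiva. Most of these genes were low, and only 2 in the cornea and 5 in the conjunctiva had a mean of at least 50 normalized counts. Stromelysin 1 (*Mmp3*) had means of 1892 and 1196 normalized counts in the conjunctiva (log2 change −0.72, SE 0.26, adjusted p = 0.390) and the membrane-type *Mmp15* 258 and 197 in the cornea (−0.38, SE 0.17, adjusted p = 0.247). *Mmp23* had −0.45 in each tissue (SE 0.52 in the cornea and 0.28 in the conjunctiva), and the macrophage elastase *Mmp12* had −1.94 (SE 1.05) in the cornea and −0.12 (SE 0.83) in the conjunctiva.

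**Figure D4:**
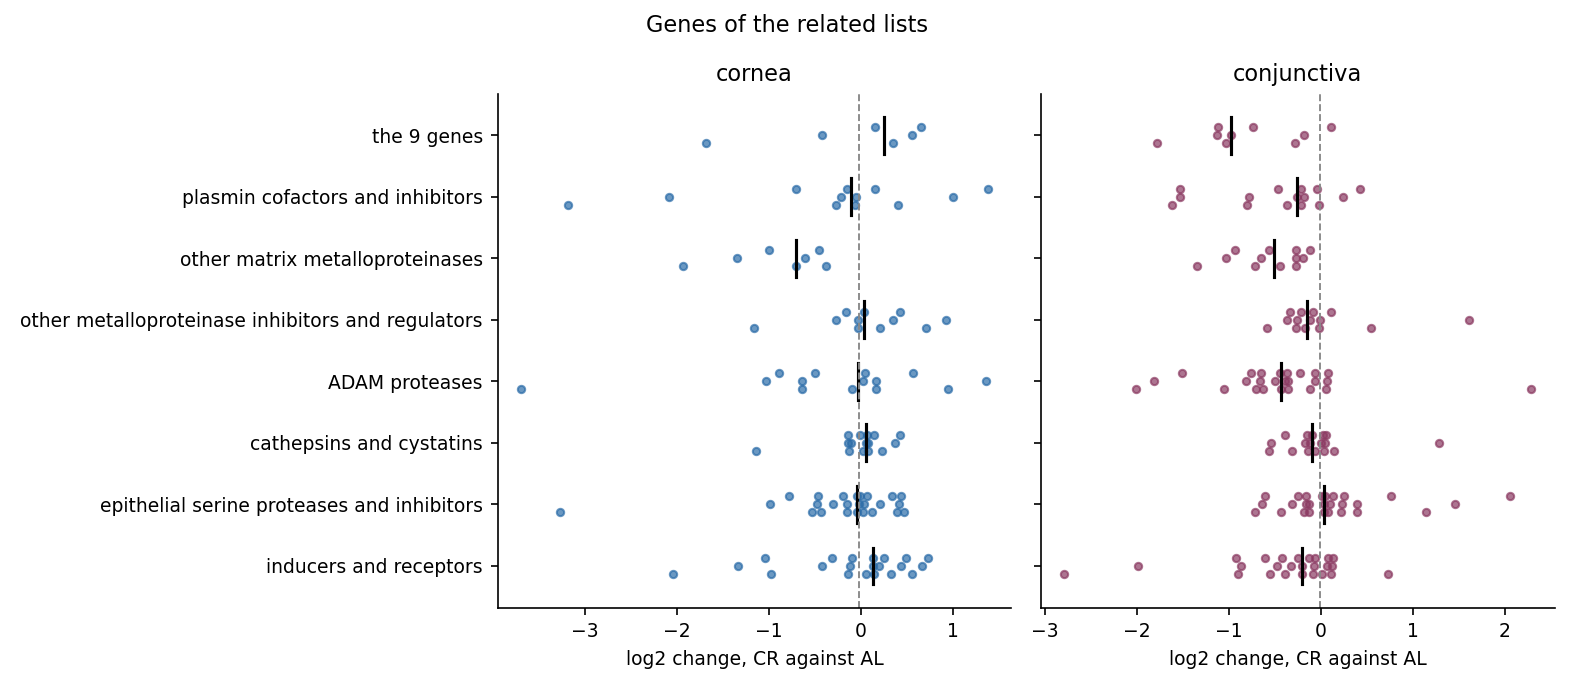
Log2 change under CR against AL (horizontal axes) of the genes tested in each of the 7 related lists and of the 9 genes themselves, in the cornea and the conjunctiva; each point is a gene, the black bar is the median of the list, and the dashed line is the median of all genes tested. The other matrix metalloproteinases lie wholly left of 0 in both tissues, with medians of −0.71 and −0.51.

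Among plasmin cofactors and inhibitors limma called 0 of 12 in the cornea and 0 of 15 in the conjunctiva (2 and 1 at an unadjusted p under 0.05), and 13 of those 15 had lower estimates. The tPA inhibitor *Serpine2* (protease nexin 1) had means of 20.1 and 46.0 normalized counts in the cornea (log2 change 1.38, SE 0.50, adjusted p = 0.167), and the plasminogen receptor *Plgrkt* had 0.40 (SE 0.16, adjusted p = 0.208). In the conjunctiva *Mrc2*, an endocytic receptor that binds uPAR and collagen, had −0.78 (SE 0.31, adjusted p = 0.423) and the protease trap *A2m* had −1.53 (SE 0.81, adjusted p = 0.577).

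Among the other metalloproteinase inhibitors and regulators limma called 0 of 11 in the cornea and 0 of 14 in the conjunctiva, with 3 and 2 at an unadjusted p under 0.05. *Lcn2*, whose product forms a complex with MMP-9, had means of 239 and 634 normalized counts in the conjunctiva (log2 change 1.61, SE 0.36, adjusted p = 0.118), and it passed at 2.04 when AL 3 was left out. *Sparc* had −0.59 (SE 0.20, adjusted p = 0.317) in the conjunctiva and 0.35 (SE 0.16, adjusted p = 0.249) in the cornea, and *Thbs1* had 0.92 (SE 0.28, adjusted p = 0.106) in the cornea. Both had estimates of opposite sign in the tissues, and their differences between tissues did not pass (adjusted p = 0.301 for *Sparc* and 0.387 for *Thbs1*). No test of that difference is read for *Plat*, which was chosen on it. Over the 11928 genes tested in both tissues, 2 had diet changes that differed at an adjusted p under 0.05.

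Of the cathepsins and cystatins 0 of 15 and 0 of 17 were called by limma, with 1 and 1 at an unadjusted p under 0.05. Cathepsin S (*Ctss*) had −0.40 (SE 0.16, adjusted p = 0.422) and *Ctso* −0.55 (SE 0.27, adjusted p = 0.541) in the conjunctiva, and legumain (*Lgmn*) 0.42 (SE 0.17, adjusted p = 0.205) and *Ctsc* 0.23 (SE 0.12, adjusted p = 0.316) in the cornea. The epithelial serine proteases and inhibitors gave 0 of 25 and 0 of 27 called, with 9 and 4 at an unadjusted p under 0.05. The airway-type protease *Tmprss11d* had means of 3531 and 2571 in the cornea (log2 change −0.47, SE 0.12, adjusted p = 0.0512) with no overlap of the diets, and *Tmprss4* had −0.44 (SE 0.13, adjusted p = 0.0890). In the conjunctiva *Tmprss11e* had 1.14 (SE 0.31, adjusted p = 0.157) and hepsin (*Hpn*) 0.76 (SE 0.28, adjusted p = 0.373).

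Inducers and receptors gave 0 of 21 and 0 of 25 called by limma, with 5 and 3 at an unadjusted p under 0.05. The AP-1 subunit *Junb* had 0.43 (SE 0.13, adjusted p = 0.108) and *Nfkb1* 0.66 (SE 0.19, adjusted p = 0.0847) in the cornea. The AP-1 subunit *Fosl1* had means of 50.2 and 4.82 normalized counts in the conjunctiva (log2 change −2.79, SE 1.10, adjusted p = 0.410), and *Tgfb2* had −0.39 (SE 0.17, adjusted p = 0.470).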

How the data were processed

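Per the study's methods, the authors sequenced single reads, aligned them with STAR to mm10 and counted reads per gene with HTSeq; the labels' processing notes name GRCm39. The labels name a stranded kit and the methods an oligo(dT)-primed kit, so levels were not compared between genes and use of strand is unknown. The values deposited by the authors, 1 table per tissue, are on a log2 scale: each count was divided by its library's size factor and 1 was added before the log. They were turned back into normalized counts and whole reads (100% of values within 0.01 of a whole number). Of 24557 features, 10 with a repeated symbol were left out. All columns were matched to a library by title.

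Diets were compared within each tissue by limma 3.58.1 (statmod 1.5.0, R 4.3.3) with trend and robust moderation on log2(normalized count + 1), for genes whose mean was 10 or more. The difference between tissues used Satterthwaite degrees of freedom. Its SE took the 2 tissues as independent, although the study's methods say that several tissues were taken from each mouse. Relations used exact permutation within diet. The fit was also run on simulated counts with the same dispersion for every gene, a simpler setting than these data, so nothing is read from that run. The 9 genes and the lists were chosen with earlier results of these data known. Beside the 9 genes, the text names pathway genes called in either tissue and the 2 with the smallest p per list and tissue, and the genes most alike in pattern. *Syn3* and the marker-relative values were added after the values were seen. Alternatives were other pseudocounts, filters, scalings (quantile, TMM), array weights, voom, the zero share of each library (the percentage of genes at 0 reads) as covariate, a replicate block and leaving out each library.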

Additional observations from a re-analysis of the deposited data

Results flagged for a closer look

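In each group of each gene, the highest and lowest library were compared with the rest by Dixon's ratio at the 95% level, which chance passes in about 1 of 20 groups. Of 36 groups examined, 5 passed. *Timp1* in the conjunctiva had 162 normalized counts (144 reads) in AL 3, while the other AL libraries had 16.1 to 21.5. *Timp2* in the cornea had 5158 in CR 7 and 1929 to 2767 in the other CR libraries. *Plau* in the cornea had 19.5 (21 reads) in CR 7 and 31.1 to 35.0 in the others. *Mmp9* in the cornea had 7.64 in AL 3 (7 reads) with the other AL libraries at 0, and 12.3 in CR 2 (13 reads) with the others at 0 to 1.86.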

How the results depend on the processing

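All 287 values of the 9 genes under the alternatives moved by less than 1 SD between libraries. Leaving out 1 library can hardly move an estimate that far, so this limit says little about those runs. It was also met by *Plaur* in the conjunctiva, whose log2 change went from −0.98 to 0.002 with 1 library left out. *Plat* kept its direction in every alternative run, under other processing at 0.43 to 0.64 (cornea) and −1.05 to −0.84 (conjunctiva), and with 1 library left out at 0.39 to 0.66 and −1.15 to −0.87. Computed per shared replicate number, a replicate block across tissues, its difference between tissues was −1.44. *Timp2* in the cornea was −0.06 with the zero share as covariate. Counts of calls moved far more, and the cause was not tested. In the cornea the genes called went from 150 to 705 with array weights, 99 with voom, 62 with the zero share as covariate and 46 with a replicate block, and ranged from 53 to 536 when 1 library was left out. In the conjunctiva they went from 50 to 149 with array weights and 10 with the replicate block, and from 26 to 127 with 1 library left out. Calls of the 9 genes are again a description only. In the cornea 0 of them were called with the covariate or the block and 0 to 1 with 1 library left out. In the conjunctiva 0 were called with no filter, the covariate or the block, 2 (*Plat* and *Mmp9*) with array weights, and 0 to 2 with 1 library left out. Pathway genes called in the cornea were 5 with array weights, 0 with voom or the block and 0 to 5 with 1 library left out, and in the conjunctiva 1 with array weights and 0 to 1 with 1 library left out. With no filter *Hgf*, and with the covariate *Tmprss11d*, was called in place of *Adam9*. Within a tissue, same-numbered AL and CR libraries came from different mice and correlated at −0.30 to 0.29, so calls lost under the block are not read as weaker effects. Across tissues, same-numbered libraries of 1 diet correlated at −0.42 to 0.14. Whether they came from the same mouse is not known here. Genes with few reads (*Plaur*, *Mmp9* and *Timp1* in the cornea) could not be compared at this depth.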
